A study of Mus musculus with 12 samples.

Results

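The genes described here mark myofibroblasts, the contractile form that fibroblasts take on in culture and in wounds. They are the 7 smooth muscle contractile genes Acta2, Tagln, Cnn1, Myl9, Tpm1, Tpm2 and Actg2 and the 2 growth factor genes Ccn1 and Ccn2 of the CCN family. They were chosen by name, with earlier results of these data known, and are 9 genes of the 12393 on the array. Of the 20380 probe sets with 1 gene symbol, 16 belong to them. All 9 were among the 10674 genes bright enough to be tested. Their chosen probe sets lay above the filter level, log2 5.25, on each of the 12 arrays, the lowest member value being 7.15 for Cnn1.

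The study followed mouse embryonic fibroblasts (MEFs), primary cells grown from whole embryos, under the chemical combinations SGCF and 6TCF, with the aim its title names of turning fibroblasts toward several lineages with chemicals. RNA was measured on Affymetrix Mouse Genome 430A 2.0 arrays at days 0, 5 and 10 of each combination, 2 arrays a group and 6 groups in all. Per the labels, fibroblasts from each embryo were grown in medium with 10% fetal bovine serum and, on the day after seeding, given a medium with 15% serum and 40 ng/ml of basic fibroblast growth factor. This holds for both arms. The labels name no component of SGCF or 6TCF. No untreated or vehicle culture stands at day 5 or 10, so a change from day 0 also holds time in culture and the change of medium. The day 0 arrays carry an arm's name too, and the labels do not say whether those cells had met the chemicals. Nor do they say whether the 2 arrays of a group came from separate embryos or cultures, and p-values then measure the spread between these arrays, which may be technical.

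A myofibroblast holds stress fibres, bundles of actin and non-muscle myosin that pull on the surrounding matrix, and adds smooth muscle isoforms of actin and actin-binding proteins to them. Transforming growth factor beta (TGF-beta) acting through SMAD proteins, and tension acting through the actin-sensing coactivators MRTF with serum response factor (SRF) and through YAP and TAZ with TEAD factors, are the best known inducers of these genes. CCN1 and CCN2 are secreted proteins that bind integrins and are widely used as readouts of YAP, and CCN2, also called connective tissue growth factor, of TGF-beta as well. Fibroblasts kept on plastic in serum usually express this programme without any added signal.

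Levels are log2(intensity + 16) after quantile normalization between arrays. Changes are log2 differences between groups with their standard error (SE) from limma, and genes with an adjusted p under 0.05 over the 10674 tested are named as called. SGCF arrays were dimmer as deposited, with median intensities of 60.9 to 86.2 against 102.4 to 142.0 on 6TCF arrays, so that brightness and arm cannot be told apart. Precision is limited by how few arrays there are. Pairs of arrays from 1 group had r = 0.985 to 0.997 across genes, which are not independent replicates. Of the 10 fibroblast markers all were tested, and their summed level stayed between 15.72 and 16.17 on the log2 scale on the 12 arrays. Under that steady sum single markers moved both ways, with 4 lower and 2 higher at day 5 of SGCF, 2 and 5 at day 10 of SGCF, 3 and 5 at day 5 of 6TCF, and 5 and 5 at day 10 of 6TCF. The matrix proteoglycan genes Lum and Dcn rose by 3.58 ± 0.15 and 2.57 ± 0.13 by day 10 of SGCF and by 5.23 ± 0.15 and 3.38 ± 0.13 by day 10 of 6TCF, and the receptor gene Pdgfrb fell by 1.61 ± 0.17 by day 10 of 6TCF. The smooth muscle transcription coactivator Myocd lay between 4.78 and 5.65, around the filter level, and the smooth muscle myosin heavy chain gene Myh11 between 4.96 and 7.92. Of the endothelial markers, Pecam1, Tek and Tie1 were below the filter level in every group, and the group means of Kdr reached 7.38. In bulk RNA such as this, fewer cells of a type and less RNA per cell cannot be told apart.

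The stretch just upstream of a start site is where SRF, TEAD and SMAD factors can act, and the windows of the members that hold one of their motifs are printed for that reason. RefSeq windows of GRCm38.p6 were at hand for 6 of the 9 members, Acta2, Cnn1, Myl9, Tpm1, Tpm2 and Ccn1, and each was read over the 250 bases before the start site that the window table uses. That site is not always the outermost end of the annotated gene. It lies on it for Ccn1, 29, 32 and 56 bases inside it for Tpm2, Cnn1 and Myl9, 212 bases inside it for Acta2 and 459 bases inside it for Tpm1, so that 212 bases of the Acta2 window and all 250 of the Tpm1 window fall within the span of the gene. Searched for on both strands were the CArG box bound by SRF (CC, then 6 bases each A or T, then GG), the TEAD core GGAATG and the SMAD core CAGACA. Capitals mark the matches, read 5′ to 3′ on the strand of the gene.
Acta2: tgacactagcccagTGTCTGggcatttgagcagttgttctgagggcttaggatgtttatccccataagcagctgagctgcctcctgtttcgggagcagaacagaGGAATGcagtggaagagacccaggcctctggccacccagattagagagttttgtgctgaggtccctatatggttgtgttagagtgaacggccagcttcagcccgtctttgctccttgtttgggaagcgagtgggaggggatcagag
Myl9: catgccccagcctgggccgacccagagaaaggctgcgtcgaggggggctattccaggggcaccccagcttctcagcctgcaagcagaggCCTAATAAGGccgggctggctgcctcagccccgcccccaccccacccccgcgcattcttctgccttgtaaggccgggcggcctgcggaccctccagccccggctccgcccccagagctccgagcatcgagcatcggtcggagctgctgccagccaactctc
Tpm1: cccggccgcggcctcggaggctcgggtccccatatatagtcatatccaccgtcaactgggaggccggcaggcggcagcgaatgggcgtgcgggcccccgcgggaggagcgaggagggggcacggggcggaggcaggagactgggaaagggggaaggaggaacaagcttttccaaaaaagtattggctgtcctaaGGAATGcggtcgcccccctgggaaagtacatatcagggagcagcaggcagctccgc
Ccn1: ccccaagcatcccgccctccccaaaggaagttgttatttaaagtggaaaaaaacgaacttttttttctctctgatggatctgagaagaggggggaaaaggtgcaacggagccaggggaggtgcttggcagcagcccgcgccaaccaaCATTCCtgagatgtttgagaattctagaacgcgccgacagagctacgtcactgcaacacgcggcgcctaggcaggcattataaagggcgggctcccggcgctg

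The Acta2 window lies on the minus strand at chr19:34255374-34255623. It holds a TEAD core at -146 to -141 and a SMAD core in reverse at -236 to -231, counted, as for the other windows, from that start site. Myl9, on the plus strand at chr2:156775214-156775463, holds a CArG box at -161 to -152. Tpm1, on the minus strand at chr9:67049214-67049463, holds a TEAD core at -56 to -51, and Ccn1, on the minus strand at chr3:145649986-145650235, one in reverse at -103 to -98. The windows of Cnn1 and Tpm2 hold no exact match to any of the 3 motifs. Only exact matches were marked, so stretches close to the CArG pattern stay in lower case. Among these are ccctatatgg and ccttgtttgg in the Acta2 window and ccttgtaagg in the Myl9 window. The lack of a marked CArG box therefore does not mean that a window has no site for SRF. Among all 32851 windows of this length, 1.47% hold a CArG box, 12.6% a TEAD core and 17.1% a SMAD core. No matches overlapped in the 4 windows shown, and a match is a string of letters, not a measured binding site.

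Every one of the 9 genes fell from its day 0 level in both arms, at day 5 and at day 10. At day 5 of SGCF 9 of 9 were called lower, where 12.7% of all genes tested were, and their median change was -2.27 against 0.02 over all genes. At day 10 of SGCF the count was again 9 of 9, where 18.3% of all genes were called lower, with a median of -1.75 against 0.03. Under 6TCF 9 of 9 were called lower at day 5, where 12.6% of all genes were, and 9 of 9 at day 10, where 20.0% were. The members' medians were -1.48 and -1.86 on those days, against -0.0004 and -0.01 over all genes. In each of these comparisons none of the members' day 5 or day 10 arrays overlapped the day 0 arrays of their arm, where 26.6% and 30.3% of all genes stood apart and lower at days 5 and 10 of SGCF, and 32.9% and 39.0% at days 5 and 10 of 6TCF. Days 5 and 10 of an arm share that arm's day 0 arrays, so these comparisons are not independent of each other.

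**Figure D1:**
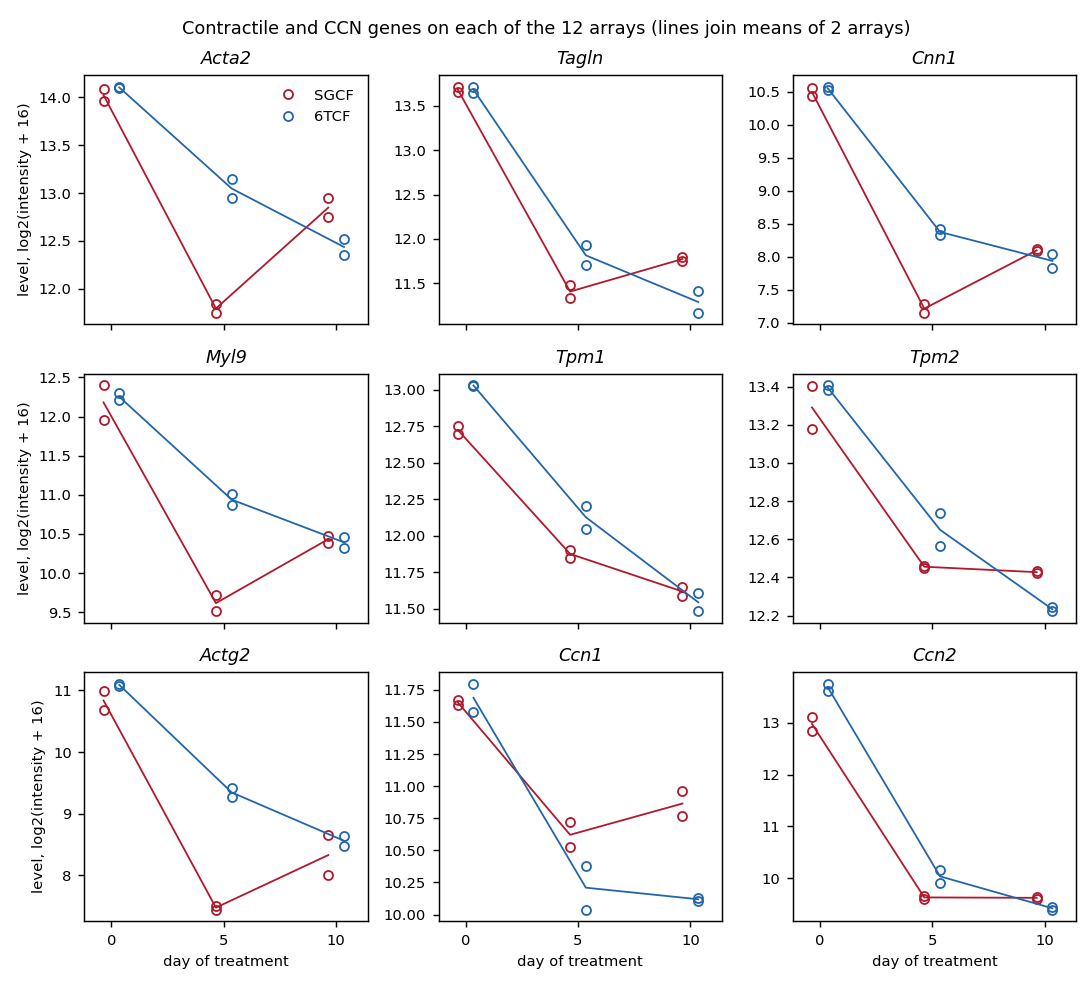
Level of each of the 9 genes, log2(intensity + 16), on every array against the day of treatment, with SGCF in red and 6TCF in blue, drawn slightly apart on the day axis. Circles are arrays, lines join the means of 2 arrays, and each panel has its own vertical range. In Acta2, Cnn1, Myl9 and Actg2 the red line dips under the blue at day 5 and turns up again by day 10.

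Acta2 encodes smooth muscle alpha-actin, the actin by which myofibroblasts are usually recognised (probe set 1416454_s_at, gene at chr19:34240336-34255585 on GRCm38.p6, as for all genes below). Its SGCF levels were 14.08 and 13.96 at day 0, 11.75 and 11.84 at day 5, and 12.95 and 12.75 at day 10. Its 6TCF levels were 14.11 and 14.09 at day 0, 13.14 and 12.95 at day 5, and 12.52 and 12.35 at day 10. No groups overlapped, and SGCF day 5 was the lowest of the 6. Acta2 changed by -2.23 ± 0.13 by day 5 of SGCF, 4.69-fold lower (adjusted p = 1.28e-07), and by -1.06 ± 0.13 by day 5 of 6TCF, 2.08-fold lower (adjusted p = 5.53e-05). At day 10 its changes from day 0 were -1.18 ± 0.13 under SGCF and -1.67 ± 0.13 under 6TCF. The probe set's name marks it as one shared with transcripts of other genes, and the nearest relatives were therefore read as well. The skeletal muscle actin gene Acta1 changed by -1.73 ± 0.38 and -2.12 ± 0.38 at days 5 and 10 of SGCF and by -2.95 ± 0.38 and -1.91 ± 0.38 at days 5 and 10 of 6TCF. The cardiac actin gene Actc1 was called in none of these but day 10 of 6TCF, where it rose by 2.45 ± 0.68 with levels of 7.50 and 10.30 on its 2 arrays.

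Actg2, the smooth muscle gamma-actin of gut and bladder muscle, fell as well (probe set 1422340_a_at, gene at chr6:83512909-83536251). The SGCF arrays stood at 10.99 and 10.68 on day 0, 7.51 and 7.44 on day 5, and 8.00 and 8.66 on day 10. The 6TCF arrays stood at 11.11 and 11.07, then 9.41 and 9.28, then 8.64 and 8.48 on the same days. Day 5 of SGCF was again the lowest group, and at day 10 the arrays of the arms overlapped, the SGCF pair being spread over more than any other pair of this gene. Actg2 changed by -3.36 ± 0.19 by day 5 of SGCF, 10.3-fold lower (adjusted p = 1.21e-07), and by -1.74 ± 0.19 by day 5 of 6TCF, 3.35-fold lower (adjusted p = 2.36e-05). By day 10 the changes from day 0 were close, -2.51 ± 0.19 and -2.53 ± 0.19 in SGCF and 6TCF.

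Cnn1 encodes calponin, which binds actin and slows its myosin motor in smooth muscle (probe set 1417917_at, gene at chr9:22099221-22109221). Under SGCF it measured 10.44 and 10.55 at day 0, 7.28 and 7.15 at day 5, and 8.11 and 8.08 at day 10. Under 6TCF it measured 10.57 and 10.53, 8.42 and 8.33, and 8.04 and 7.83 at days 0, 5 and 10. Beyond day 0, where the arms overlapped, all groups were apart, from 6TCF day 5 at the top to SGCF day 5 at the bottom. The change by day 5 was -3.28 ± 0.12 in SGCF, 9.70-fold lower (adjusted p = 4.86e-09), and -2.18 ± 0.12 in 6TCF, 4.52-fold lower (adjusted p = 9.16e-08). By day 10 Cnn1 had changed by -2.40 ± 0.12 in SGCF and by -2.61 ± 0.12 in 6TCF.

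Tagln encodes transgelin, a calponin relative that bundles actin and is an early marker of smooth muscle (probe set 1423505_at, gene at chr9:45929628-45936058). Its level on the SGCF arrays was 13.65 and 13.72 at day 0, 11.49 and 11.33 at day 5, and 11.80 and 11.75 at day 10. Its level on the 6TCF arrays was 13.72 and 13.65, 11.93 and 11.70, and 11.41 and 11.17. The arms overlapped at day 0, 6TCF day 5 overlapped SGCF day 10, and SGCF day 5 overlapped 6TCF day 10. Tagln changed by -2.27 ± 0.13 by day 5 of SGCF and by -1.87 ± 0.13 by day 5 of 6TCF, and it was 3.75-fold and 5.24-fold lower than at day 0 by day 10 of SGCF and of 6TCF.

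Myl9 encodes the regulatory light chain whose phosphorylation switches smooth muscle and non-muscle myosin on (probe set 1452670_at, gene at chr2:156775408-156781657). In SGCF it stood at 12.40 and 11.96 at day 0, 9.72 and 9.51 at day 5, and 10.39 and 10.48 at day 10. In 6TCF it stood at 12.30 and 12.21, 11.01 and 10.87, and 10.46 and 10.33. The groups overlapped between the arms at day 0 and at day 10, and at day 5 the arms were apart by more than 1 log2 unit. The SGCF day 0 pair was the widest for this gene, with an SD of 0.31. Myl9 fell 5.91-fold by day 5 of SGCF (-2.56 ± 0.15) and 2.49-fold by day 5 of 6TCF (-1.31 ± 0.15), and by day 10 the changes from day 0 were -1.75 ± 0.15 and -1.86 ± 0.15.

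The tropomyosins lie along actin filaments and set which proteins may bind them, and both genes had smaller estimated changes than the other contractile members in each comparison with day 0. Tpm1 (probe set 1423721_at, gene at chr9:67022590-67049672) had levels of 12.75 and 12.70 at day 0, 11.85 and 11.90 at day 5, and 11.58 and 11.65 at day 10 of SGCF. It had 13.03 and 13.03, 12.20 and 12.05, and 11.60 and 11.48 in the 6TCF arm. It was lower at each later day than at the day before in both arms, with no overlap, and the arms overlapped at day 10. Its changes from day 0 were -0.85 ± 0.11 and -1.11 ± 0.11 at days 5 and 10 of SGCF, and -0.90 ± 0.11 and -1.49 ± 0.11 at days 5 and 10 of 6TCF. Tpm2 (probe set 1419738_a_at, gene at chr4:43513726-43523583) had levels of 13.41 and 13.18, 12.45 and 12.46, and 12.43 and 12.42 at days 0, 5 and 10 of SGCF. It had 13.41 and 13.38, 12.74 and 12.56, and 12.22 and 12.24 in the 6TCF arm. Its day 0 arrays overlapped between the arms, and the SGCF arrays of days 5 and 10 lay within 0.04 of each other. Its changes were -0.84 ± 0.12 and -0.86 ± 0.12 at days 5 and 10 of SGCF, and -0.75 ± 0.12 and -1.16 ± 0.12 at days 5 and 10 of 6TCF.

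Ccn2, the connective tissue growth factor gene, had the largest falls of the 9 under 6TCF (probe set 1416953_at, gene at chr10:24595442-24598683). On SGCF arrays its levels were 13.11 and 12.84 at day 0, 9.65 and 9.61 at day 5, and 9.65 and 9.60 at day 10. On 6TCF arrays they were 13.62 and 13.76, 10.17 and 9.91, and 9.45 and 9.39. Every later array lay more than 2 log2 units under every day 0 array, and SGCF day 5 and day 10 overlapped. Ccn2 changed by -3.65 ± 0.13 by day 5 of 6TCF and by -4.27 ± 0.13 by day 10, 12.6-fold and 19.2-fold lower. At day 10 this was the most negative change of all 10674 genes tested in that comparison, and at day 5 only 1 gene had a more negative one. In SGCF it changed by -3.35 ± 0.13 by day 5 and -3.35 ± 0.13 by day 10, 10.2-fold lower on both days.

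Ccn1, also known as Cyr61 and an immediate early gene of growth factor signalling, fell in both arms (probe set 1416039_x_at, gene at chr3:145646971-145649985). The SGCF arrays gave 11.67 and 11.63 at day 0, 10.52 and 10.72 at day 5, and 10.77 and 10.96 at day 10. The 6TCF arrays gave 11.58 and 11.80, 10.04 and 10.38, and 10.11 and 10.13. On this probe set SGCF was the higher arm at both later days, without overlap, and days 5 and 10 of 6TCF overlapped. Ccn1 fell, with changes of -1.03 ± 0.14 and -0.79 ± 0.14 at days 5 and 10 of SGCF, 2.04-fold and 1.73-fold lower, and of -1.48 ± 0.14 and -1.57 ± 0.14 at days 5 and 10 of 6TCF, 2.79-fold and 2.97-fold lower. Some probes of this set match other sequences, by its name.

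**Figure D2:**
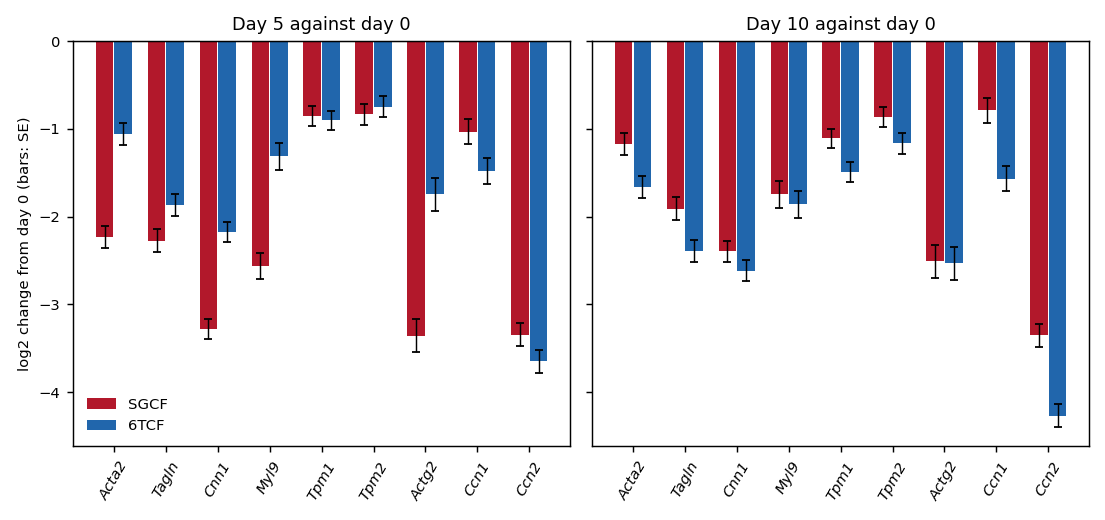
Log2 change from the arm's own day 0 at day 5 (left) and day 10 (right) for each of the 9 genes, SGCF in red and 6TCF in blue. Bars start at 0 and whiskers are the SE from limma, 2 arrays a group. All bars point down, the deepest being Ccn2 at -4.27 under 6TCF at day 10 and the shallowest Tpm2 at -0.75 under 6TCF at day 5.

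Between day 5 and day 10 several contractile genes rose again in SGCF, while most members fell further in 6TCF. In SGCF 4 of the 9 genes rose from day 5 to day 10, where 11.7% of all genes were called higher, and all 4 were contractile. These were Acta2 (1.05 ± 0.13, adjusted p = 0.000113), Cnn1 (0.88 ± 0.12, adjusted p = 0.000254), Actg2 (0.85 ± 0.19, adjusted p = 0.0065) and Myl9 (0.82 ± 0.15, adjusted p = 0.00225). Even so, each stayed called below its day 0 level. Tagln changed by 0.37 ± 0.13 and was not called (adjusted p = 0.0626), and leaving out SGCF day 0 replicate 2 brought its adjusted p to 0.0493. The changes of Tpm1, Tpm2, Ccn1 and Ccn2 lay between -0.26 and 0.24 and were not called. Without SGCF day 10 replicate 2, the higher of the Actg2 pair, the Actg2 change was 0.52 and its call was lost (adjusted p = 0.0661).

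In 6TCF 8 of the 9 genes fell further from day 5 to day 10, where 7.12% of all genes were called lower. The steps were small, from -0.42 ± 0.12 for Tpm2 to -0.78 ± 0.19 for Actg2, with Acta2 at -0.61 ± 0.13 and Ccn2 at -0.62 ± 0.13. Ccn1 changed by -0.09 ± 0.14 and was not called (adjusted p = 0.71). The median of the 9 was -0.55, against -0.003 over all genes. These calls rest on few arrays: the count was 0 without 6TCF day 5 replicate 1, 0 without 6TCF day 10 replicate 2 and 3 without 6TCF day 10 replicate 1, while all 9 members kept their direction without each of these. Over all genes the count called also dropped, to 372, 712 and 377 without these arrays in the same order, against 1688 with all arrays.

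At day 0 none of the 7 contractile members was called between the arms, and Ccn2 was. Of 12 other smooth muscle contractile genes tested, 2 were called lower and 3 higher in SGCF at day 0. The share of all genes called higher there is not given here. SGCF against 6TCF gave 1 of 9 members called lower, where 8.81% of all genes were. This was Ccn2, at -0.71 ± 0.13 (adjusted p = 0.00538), and without 6TCF day 0 replicate 2 it was -0.66 and not called (adjusted p = 0.0621). The other 8 changes lay between -0.30 for Tpm1 and 0.00 for Tagln. Their 95% intervals reached from -0.66, for Actg2, to 0.28, for Tagln and Ccn1. Without any normalization between arrays all 9 were called lower in SGCF at day 0, and the median of all genes was then -0.61.

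Because the arms had their own day 0 arrays, the difference between the arms was tested on the changes themselves. By day 5, 4 of 9 members had fallen further in SGCF than in 6TCF, where 6.06% of all genes had such a call. These were the same contractile genes that rose again in SGCF afterwards. Both comparisons use the SGCF day 5 arrays, and low values on those arrays favour both calls. The difference, SGCF minus 6TCF, was -1.61 ± 0.26 for Actg2 (adjusted p = 0.00226), -1.25 ± 0.21 for Myl9 (adjusted p = 0.00294), -1.17 ± 0.18 for Acta2 (adjusted p = 0.00138) and -1.10 ± 0.17 for Cnn1 (adjusted p = 0.00138). For Tagln it was -0.41 ± 0.18 and not called, with a 95% interval from -0.81 to -0.01. For Tpm1 it was 0.05 (interval -0.29 to 0.40) and for Tpm2 -0.09 (interval -0.45 to 0.28). The differences of Ccn1 and Ccn2 pointed the other way, 0.45 ± 0.20 and 0.30 ± 0.19, and were not called. With the mean of both Acta2 probe sets in place of the brighter, the Acta2 difference was -0.47 and not called (adjusted p = 0.121).

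**Figure D3:**
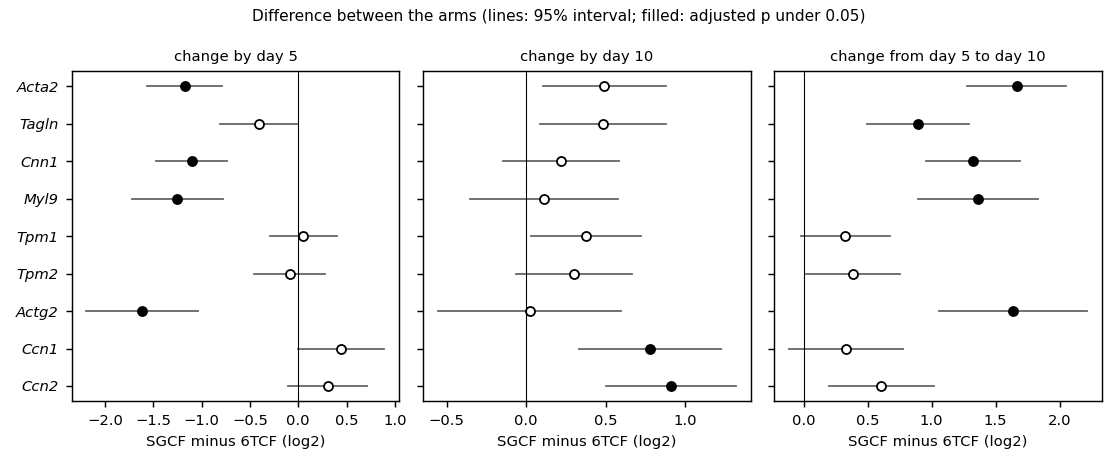
Difference between the arms, SGCF minus 6TCF, in the log2 change by day 5, by day 10 and from day 5 to day 10 for each of the 9 genes. Points are estimates, lines 95% intervals, and filled points are called at an adjusted p under 0.05. Acta2, Cnn1, Myl9 and Actg2 lie left of 0 by day 5 and right of 0 between the days. By day 10 Actg2, Cnn1, Myl9 and Tpm2 have intervals that cross 0. Acta2, at 0.49 with an interval of 0.10 to 0.88, and Tagln and Tpm1 have intervals right of 0 and open points. Ccn1 and Ccn2 lie right of 0 with filled points.

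By day 10 the difference was no longer called for any contractile member, and it was called for both CCN members. The change from day 0 was less negative in SGCF than in 6TCF for 2 of 9 members, where 12.3% of all genes were called higher. These were Ccn2, at 0.91 ± 0.19 (adjusted p = 0.00512), and Ccn1, at 0.78 ± 0.20 (adjusted p = 0.0174). For Ccn2 much of this lies in the day 0 arrays, where SGCF against 6TCF was -0.71 ± 0.13. Its day 10 means were close, 9.62 in SGCF and 9.42 in 6TCF. For Ccn1 the arms differed by -0.03 ± 0.14 at day 0, and the day 10 means were 10.86 in SGCF and 10.12 in 6TCF. The 7 contractile differences lay between 0.02 for Actg2 and 0.49 for Acta2. The intervals of Acta2 (0.10 to 0.88), Tagln (0.08 to 0.88) and Tpm1 (0.03 to 0.73) lay above 0, and those of the other contractile members crossed it. The calls here depend on scaling: with each array scaled to a common median Ccn2 was at 0.46 (adjusted p = 0.0635) and Ccn1 at 0.58 (adjusted p = 0.0871), and without normalization they were at 0.25 and 0.37. The Ccn1 call was also lost without 6TCF day 0 replicate 2, 6TCF day 10 replicate 1 or SGCF day 10 replicate 2 (0.67, 0.77 and 0.68, adjusted p = 0.0801, 0.0594 and 0.0635). Without SGCF day 0 replicate 1, Acta2 was called as well, at 0.55 (adjusted p = 0.043).

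The change from day 5 to day 10 was compared between the arms after those changes had been seen. It was higher in SGCF for 5 of 9 members, where 6.54% of all genes were called higher. The differences were 1.66 ± 0.18 for Acta2, 1.64 ± 0.26 for Actg2, 1.36 ± 0.21 for Myl9, 1.32 ± 0.17 for Cnn1 and 0.89 ± 0.18 for Tagln, with adjusted p of 0.000341, 0.00319, 0.00264, 0.0008 and 0.0104 in that order. Ccn2 missed the threshold at 0.61 ± 0.19 (adjusted p = 0.0544), and passed it without 6TCF day 5 replicate 2 (0.74, adjusted p = 0.0439) or either SGCF day 0 array. This test shares its arrays with the comparisons above.

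Several members have more than 1 probe set, and each set was also tested on its own, with p-values adjusted over 17128 probe sets. All 3 of Tpm1 were called lower in each of the 4 comparisons with day 0, with changes of -0.59 to -1.09 at day 5 of SGCF and of -1.47 to -1.52 at day 10 of 6TCF. Of the 4 sets of Tpm2, 3 were called lower in each, and 1419739_at, with levels of 5.31 to 6.14, was called in none. Of these, 1449577_x_at alone differed between the arms, by 0.74 for the change by day 5 and 0.61 by day 10, SGCF minus 6TCF. The other Ccn1 set, 1438133_a_at, was also called lower, with changes of -0.86 and -0.92 at days 5 and 10 of SGCF and of -1.13 and -1.84 at days 5 and 10 of 6TCF. On it the arms overlapped at day 5, unlike on the first set, with SGCF at 9.52 and 9.81 and 6TCF at 10.02 and 9.70. The probe sets were divided over the step from day 5 to day 10 of 6TCF. The other Ccn1 set fell, by 0.71 (adjusted p = 0.0398), where the first was not called. Of Tpm2 the brightest set was called lower, and 1425028_a_at (-0.27, adjusted p = 0.134), 1449577_x_at (-0.0078, adjusted p = 0.979) and 1419739_at (0.16, adjusted p = 0.649) were not. With the mean of a gene's probe sets, 6 of the 9 members were called lower in that step, against 8 with the brightest set. The other Acta2 set, 1456658_at, lay below the filter level, at 4.64 to 5.22, and was not tested.

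The genes whose 4 changes from day 0 were nearest to a member's, by the root mean square (RMS) difference over those 4 values, give its pattern company. Cnn1 and Actg2 were each other's nearest member, at an RMS of 0.23 log2 units, and both had the LIM-domain gene Fhl1 as nearest other gene, at 0.25 and 0.25. Pmepa1, a TGF-beta target that dampens SMAD signalling, was nearest to Acta2 (0.20), and Skil, a SMAD corepressor, to Tagln (0.18). The Notch target Hes1 was nearest to Myl9 (0.18), the cochaperone gene Bag2 to Tpm1 (0.09), the chloride channel family gene Clic4 to Tpm2 (0.10) and Lrrk1, a kinase gene, to Ccn1 (0.12). Ccn2 stood alone among the members, with its nearest, Cnn1, at 1.21, and the protease gene Tll1 was its nearest other gene at 0.26. With Col8a1 at 0.54 and Fbln2 at 0.75, the next genes were already farther off. The 4 values of a gene share the day 0 arrays and come from 6 groups.

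Other genes of the smooth muscle contractile programme were divided, most being called lower under SGCF. Of 12 tested, 10 were called lower and 0 higher at day 5 of SGCF, and 9 lower and 2 higher at day 10. Under 6TCF 5 were lower and 1 higher at day 5, and 8 lower and 1 higher at day 10. Their medians were -1.17 and -0.73 at days 5 and 10 of SGCF and -0.35 and -0.58 at days 5 and 10 of 6TCF. Mylk, the kinase that phosphorylates the Myl9 protein, fell by 2.02 ± 0.16 by day 5 of SGCF and rose by 1.41 ± 0.16 to day 10, and changed by -0.04 ± 0.16 and 0.00 ± 0.16 at days 5 and 10 of 6TCF. The difference in its change by day 5 was called (-1.98 ± 0.22, adjusted p = 0.000186). Ppp1r14a, an inhibitor of myosin phosphatase, fell by 1.88 ± 0.18 by day 5 of SGCF, against -0.52 ± 0.18 in 6TCF (not called). Csrp2, a LIM protein of smooth muscle, changed by -0.46 ± 0.15 (called lower) and 0.47 ± 0.15 (called higher) at days 5 and 10 of SGCF, and rose by 2.52 ± 0.15 and 3.56 ± 0.15 at days 5 and 10 of 6TCF. Its difference between the arms in the change by day 5 was -2.98 ± 0.21 (adjusted p = 6.18e-06). The stress fibre gene Pdlim7 was called lower in both arms. Its changes were -0.63 ± 0.18 and -1.06 ± 0.18 at days 5 and 10 of SGCF. Under 6TCF they were -1.47 ± 0.18 and -2.22 ± 0.18.

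Close relatives of the contractile members, among them the muscle actin genes Acta1 and Actc1, were called lower in part. Of 13 close relatives tested, 7 were lower and 0 higher at day 5 of SGCF, 10 lower and 1 higher at day 10 of SGCF, 8 lower and 0 higher at day 5 of 6TCF, and 9 lower and 1 higher at day 10 of 6TCF. Their medians ran from -0.34 to -0.61. The cytoplasmic actin gene Actb changed by -0.19 ± 0.11 and -0.32 ± 0.11 at days 5 and 10 of SGCF, only the second of which was called, and fell, with changes of -0.46 ± 0.11 and -0.76 ± 0.11 at days 5 and 10 of 6TCF. Cnn2, the calponin of non-muscle cells, fell, with changes of -0.95 ± 0.13 and -0.97 ± 0.13 under SGCF and of -1.11 ± 0.13 and -1.70 ± 0.13 under 6TCF. Tagln2 fell, with changes of -0.73 ± 0.17 and -1.33 ± 0.17 under SGCF and of -1.11 ± 0.17 and -1.67 ± 0.17 under 6TCF. In the change by day 5 the differences between the arms, SGCF minus 6TCF, ran from -0.53 ± 0.96 for Actc1 to 1.21 ± 0.53 for Acta1 over these 13 relatives. No difference passed the threshold, where 6.06% of all genes were called lower and 2.91% higher, and the nearest to it was that of Cnn3, -0.48 ± 0.15 (adjusted p = 0.0682).

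The other CCN genes split. Ccn4 and Ccn5, also called Wisp1 and Wisp2 and known as Wnt-inducible members of the family, fell in all 4 comparisons with day 0. Ccn4 stood at 10.68 to 11.14 at day 0, 8.11 to 8.12 at day 5 and 8.95 to 9.05 at day 10 of SGCF, against 11.10 to 11.17, 8.53 to 8.54 and 8.58 to 8.66 in 6TCF. Ccn5 fell, with changes of -3.92 ± 0.15 and -3.37 ± 0.15 at days 5 and 10 of SGCF and of -2.04 ± 0.15 and -2.05 ± 0.15 at days 5 and 10 of 6TCF, and at day 0 it was 1.71 ± 0.15 higher in SGCF. Ccn3, also called Nov and often opposed to CCN2 in culture, rose instead, by 1.18 ± 0.17 and 0.46 ± 0.17 under SGCF and by 1.88 ± 0.17 and 0.71 ± 0.17 under 6TCF. Ccn6 was not analysed here.

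**Figure D4:**
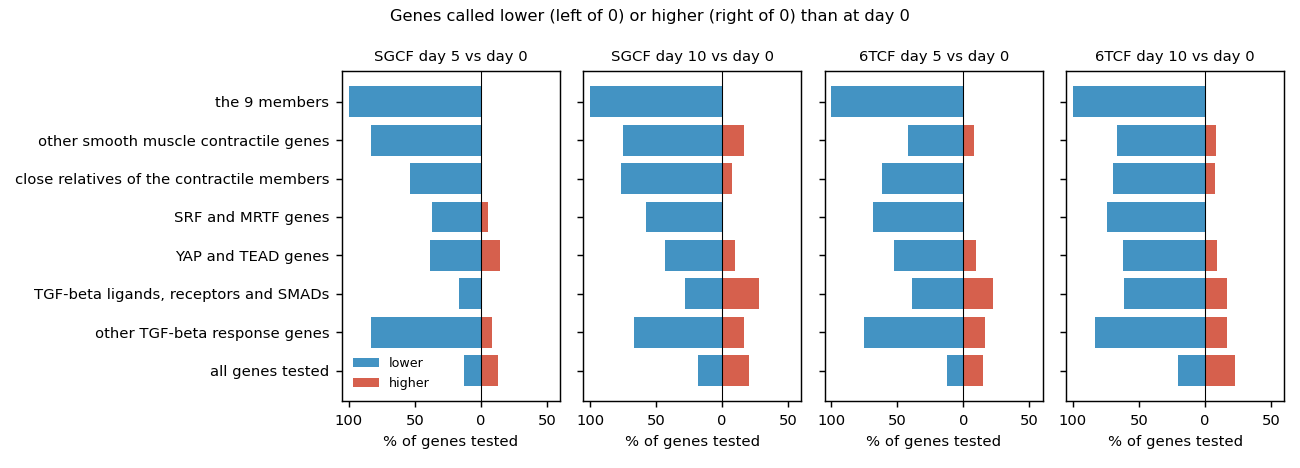
Share of the tested genes of each list that were called lower (blue, left of 0) or higher (red, right of 0) than at day 0, in percent, for day 5 and day 10 of each arm. The bottom row is all 10674 genes tested. The 9 members reach 100% lower in all 4 panels, and the bottom row stays between 12.6% and 20.0% lower.

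Genes of the pathways that drive the programme were read from lists chosen with these data known, and their counts are described without a test of the list. Over all genes, 12.8% and 20.5% were called higher at days 5 and 10 of SGCF and 15.1% and 23.2% at days 5 and 10 of 6TCF. Of 19 SRF and MRTF genes, 7 were lower and 1 higher at day 5 of SGCF, 11 and 0 at day 10 of SGCF, 13 and 0 at day 5 of 6TCF, and 14 and 0 at day 10 of 6TCF. Their medians were -0.35, -0.52, -1.01 and -1.50 in that order. Srf itself changed by -0.22 ± 0.14 by day 5 of SGCF (not called) and fell, with changes of -0.85 ± 0.14 and -1.19 ± 0.14 at days 5 and 10 of 6TCF. Of its coactivators, Mrtfa was called only at day 10 of 6TCF (-0.84 ± 0.16) and Mrtfb in none. The focal adhesion gene Vcl fell, with changes of -1.40 ± 0.19 and -1.16 ± 0.19 under SGCF and of -1.18 ± 0.19 and -2.11 ± 0.19 under 6TCF. Egr1, an SRF target induced by growth factors, fell, with changes of -2.58 ± 0.23 and -3.09 ± 0.23 under 6TCF, against -0.42 ± 0.23 (not called) and -0.68 ± 0.23 under SGCF. In the change by day 10, 11 of the 19 were called less negative in SGCF than in 6TCF, where 12.3% of all genes were called higher. At day 0, 8 of the 19 were already called lower in SGCF and 0 higher, where 8.81% of all genes were called lower. Both counts use the day 0 arrays. How the counts of these lists depend on scaling was not tested.

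YAP and TEAD genes were divided, with more called lower than higher. Of 21 tested, 8 were lower and 3 higher at day 5 of SGCF, 9 and 2 at day 10 of SGCF, 11 and 2 at day 5 of 6TCF, and 13 and 2 at day 10 of 6TCF. Ankrd1, a cardiac ankyrin repeat protein gene much used beside Ccn1 and Ccn2 as a YAP readout, fell, with changes of -2.45 ± 0.17 and -2.31 ± 0.17 under SGCF and of -2.46 ± 0.17 and -2.93 ± 0.17 under 6TCF. The tissue factor gene F3 fell, with changes of -1.85 ± 0.14 and -1.11 ± 0.14 under SGCF and of -2.14 ± 0.14 and -2.58 ± 0.14 under 6TCF. Yap1 was called in none of the 4, with changes of -0.33 to 0.23, and Wwtr1, which encodes TAZ, rose under SGCF by 0.60 ± 0.13 and 0.83 ± 0.13. In the change by day 10, 11 of the 21 were called less negative in SGCF, among them F3 (1.47 ± 0.19) and Crim1 (2.12 ± 0.27), where 12.3% of all genes were called higher. At day 0, 9 of the 21 were already called lower in SGCF and 0 higher, where 8.81% of all genes were called lower.

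The TGF-beta response genes fell in most cases, while ligands and receptors were divided. Of 12 other response genes, 10 were lower and 1 higher at day 5 of SGCF, 8 and 2 at day 10 of SGCF, 9 and 2 at day 5 of 6TCF, and 10 and 2 at day 10 of 6TCF. Lox, which crosslinks collagen, fell by 4.11 ± 0.18 by day 5 of SGCF and rose by 2.29 ± 0.18 to day 10, and the matricellular gene Postn fell by 3.75 ± 0.13 and rose by 2.45 ± 0.13. In 6TCF the changes of Lox and Postn from day 5 to day 10 were 0.16 ± 0.18 and 0.04 ± 0.13, neither called. Tgfbi of the same list went the other way and was called higher in all 4 comparisons with day 0. It rose by 0.82 ± 0.18 and 2.26 ± 0.18 at days 5 and 10 of SGCF and by 1.63 ± 0.18 and 1.28 ± 0.18 at days 5 and 10 of 6TCF. Of 18 ligands, receptors and SMAD genes, 3 were lower and 0 higher at day 5 of SGCF, 5 and 5 at day 10 of SGCF, 7 and 4 at day 5 of 6TCF, and 11 and 3 at day 10 of 6TCF. Tgfb2 had 8.63 and 8.66 at day 0, 8.14 and 8.48 at day 5, and 11.51 and 11.71 at day 10 of SGCF, as the lowest and highest array of each group, and 9.29 and 9.31, 10.92 and 11.20, and 10.69 and 10.72 in 6TCF. It thus rose by 3.30 ± 0.14 from day 5 to day 10 of SGCF, the interval in which Acta2, Cnn1, Myl9 and Actg2 rose, and by 1.76 ± 0.14 by day 5 of 6TCF, when they fell. Tgfb1 fell by 1.03 ± 0.22 by day 5 of 6TCF, Smad7, the inhibitory SMAD induced by the pathway, fell by 0.65 ± 0.13, and the receptor genes Tgfbr1 and Tgfbr2 rose by 0.53 ± 0.13 and 0.63 ± 0.21. Smad3 was called in none of the 4 comparisons with day 0.

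Markers of other cell types moved with the groups too. Macrophage markers, genes of a cell type found in MEF cultures, were called lower in 9 of 9 cases at days 5 and 10 of SGCF and in 8 of 9 at days 5 and 10 of 6TCF. At day 0 they were called higher in SGCF than in 6TCF in 8 of 9 cases, with a median difference of 1.17 against 0.02 over all genes. The share of all genes called higher in SGCF at day 0 is not given here. By day 5, 8 of 9 had fallen further in SGCF, where 6.06% of all genes had such a call. Both counts use the day 0 arrays of the arms, so they are not independent. All 9 passed the filter on low values. Their summed log2 level was 12.72 to 12.92 at day 0, 8.85 to 9.25 at day 5 and 8.62 to 8.99 at day 10 of SGCF, and 11.59 to 11.66, 9.58 to 9.82 and 10.46 to 10.58 in 6TCF. Of 10 smooth muscle and pericyte markers tested, 5 were lower and 3 higher at day 5 of SGCF and 4 lower and 3 higher at day 5 of 6TCF. Myh11, Smtn, Lmod1, Des and Myocd were also counted among the other smooth muscle contractile genes above, so the 2 lists are not independent. At day 10, 5 were lower and 4 higher in SGCF, and 7 lower and 3 higher in 6TCF. The median changes of these markers at day 5 were -0.45 under SGCF and -0.18 under 6TCF. Their summed level was 10.49 to 10.57 at day 0, 11.69 to 11.78 at day 5 and 10.90 to 11.16 at day 10 of SGCF, and 10.77 to 10.84, 11.22 to 11.47 and 11.14 to 11.20 in 6TCF. The pericyte gene Rgs5 rose by 3.80 ± 0.23 by day 5 of SGCF and by 2.39 ± 0.23 by day 5 of 6TCF, where Acta2 fell, and Abcc9 was below the filter level. At day 5 of SGCF Rgs5 was the brightest of these markers, with a mean of 11.33, and weighs most in that group's sum. Mcam of the same list went down, from a mean of 8.58 at day 0 to 6.08 at day 5 of SGCF. In 6TCF its means on those days were 8.63 and 7.35. Kcnj8 went up, from 5.99 to 7.06 in SGCF and from 6.05 to 8.78 in 6TCF. Of 8 skeletal muscle markers tested, 1 was lower and 1 higher at day 5 of SGCF, 1 and 0 at day 10 of SGCF, 1 and 0 at day 5 of 6TCF, and 1 and 4 at day 10 of 6TCF. The 2 arrays of 6TCF day 10 stood apart here, with summed levels of 9.069 and 11.003 on replicates 1 and 2, against 10.39 and 10.47 at day 0 of 6TCF. On those 2 arrays the fast muscle light chain gene Mylpf had 6.78 and 9.34 and the fast troponin gene Tnnc2 6.54 and 8.82. Without 6TCF day 10 replicate 2, 9 of 9 members were still called lower than at day 0, and 0 of 9 between day 5 and day 10. The summed level of the cardiac muscle markers was 7.94 and 8.71 on the 6TCF day 10 arrays, against 8.81 and 8.94 at day 0, and of 6 tested 2 were lower and 2 higher.

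The array's RNA quality controls moved with the groups too. The actin control's log2 signal at the 3' end less that at the 5' end, which grows as RNA loses its 5' ends, was 0.33 ± 0.08, 0.45 ± 0.04 and 0.46 ± 0.01 at days 0, 5 and 10 of SGCF (SD, n = 2). In 6TCF it was 0.34 ± 0.06, 0.82 ± 0.08 and 1.04 ± 0.004. The same measure of the GAPDH control lay apart between the arms at day 0, at -0.02 ± 0.05 in SGCF and 0.39 ± 0.07 in 6TCF, and it was 0.10 ± 0.09 and 0.11 ± 0.02 at days 5 and 10 of SGCF and 0.50 ± 0.13 and 0.49 ± 0.0008 at days 5 and 10 of 6TCF. The part of these shifts in markers and RNA quality in the members' changes was not tested.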

How the data were processed

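RNA of 12 arrays was measured on 22690 probe sets. The deposited intensity values are those the authors made from the scans, and MAS5, RMA and limma are listed, per the submitters' processing notes, with no step given for each. The deposited columns were not on a common scale between arrays. Of the probe sets, 20380 have 1 gene symbol, 691 several and 1555 none here, and 64 are controls. From these values log2(intensity + 16) was taken and then quantile normalized. The added 16 understates the changes of dim genes. Each gene was read from its probe set with the highest mean, and kept if its highest group mean passed the 25th percentile, log2 5.25. This left 10674 genes, on which limma 3.58.1 in R 4.3.3 was fitted to all 6 groups with 6 residual and 5.75 prior degrees of freedom. It gave 10 comparisons with Benjamini-Hochberg adjustment over all genes, and was tested on simulated data.

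The members and lists were chosen with earlier results of these data known. From each list the text names at most the 4 called genes with the largest absolute change from day 0 in either arm, plus main regulators, and for each member the nearest of the other genes by RMS. Actb, Abcc9, Cnn3, Kdr, Myh11, Myocd, Pecam1, Tek and Tie1 were named outside this rule, after their values were seen. Alternatives varied the normalization, pseudocount, filter, probe set rule, prior, arrays fitted and arrays left out, and used a replicate block. The comparison between the arms from day 5 to day 10 and 2 alternatives were added after the data had been seen. The results of 1 further gene list are not reported here.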

Additional observations from a re-analysis of the deposited data

Results flagged for a closer look

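The changes of several members differed between the arms by limma's test of the difference itself, 2 arrays a group, and each difference here is SGCF minus 6TCF on the log2 scale. In the change by day 5 these were Acta2 (-1.17), Cnn1 (-1.10), Myl9 (-1.25) and Actg2 (-1.61). In the change by day 10 they were Ccn1 (0.78) and Ccn2 (0.91). From day 5 to day 10 they were Acta2 (1.66), Tagln (0.89), Cnn1 (1.32), Myl9 (1.36) and Actg2 (1.64). The last 5 share their day 5 arrays with the first 4.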

How the results depend on the processing

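All 9 members remained called lower than at day 0 in both arms, at days 5 and 10, under each alternative tried. Over the 60 called member results, 1411 of 1464 alternative values kept direction and call, 53 lost the call and 0 reversed. Of 696 values for the 30 results not called, 33 became called and 36 reversed. The cause was not tested for any of these.

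The counts of members called moved in 6 comparisons. In 3 they moved less: the count of 4 for SGCF day 10 against day 5 became 3 to 6, the count of 4 for the difference in the change by day 5 became 3 with the mean of a gene's probe sets, and the count of 5 for the difference from day 5 to day 10 became 4 to 7. In the other 3 they moved more. For 6TCF day 10 against day 5, 8 members were called, against 0 without normalization, 5 with median scaling, 6 with the mean of a gene's probe sets and 0 to 8 without 1 array. For SGCF against 6TCF at day 0 the count of 1 became 9 without normalization, 2 with a pseudocount of 64, 2 with the trended and robust prior, and 0 to 1 without 1 array. For the difference in the change by day 10 the count of 2 became 0 without normalization, 0 with median scaling, 5 with a pseudocount of 64, 4 with the filter at the median, 5 with the trended and robust prior, and 1 to 3 without 1 array. Over all genes, the count called in 6TCF day 10 against day 5 was 1688, and 372 to 2558 without 1 array.

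Reversals all lay in results that were not called. Without normalization, the SGCF minus 6TCF difference by day 10 was -0.047 for Acta2, -0.24 for Actg2, -0.00289 for Cnn1, -0.29 for Myl9, -0.090 for Tagln, -0.098 for Tpm1 and -0.20 for Tpm2. By day 5 it was -0.14 for Ccn2 and -0.024 for Tpm1, and from day 5 to day 10 -0.074 for Tpm1 and -0.027 for Tpm2. Also without normalization, Ccn1 was at 0.12 in 6TCF day 10 against day 5 and Tagln at -0.52 in SGCF against 6TCF at day 0. Median scaling gave 0.14 for Acta2 and 0.00586 for Tpm2 at day 0, -0.037 for Actg2, -0.088 for Myl9 and -0.00138 for Tpm2 by day 10, -0.000619 for Ccn2 by day 5, and -0.011 for Tpm1 from day 5 to day 10. The mean of a gene's probe sets gave 0.23 for Tpm2 by day 5.

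Without 1 array, the values ran from -0.31 to 0.35 for Actg2 and from -0.11 to 0.33 for Myl9 by day 10. By day 5 they ran from -0.030 to 0.13 for Tpm1 and from -0.20 to 0.031 for Tpm2. At day 0 they ran from -0.14 to 0.077 for Ccn1, -0.29 to 0.15 for Myl9, -0.033 to 0.036 for Tagln and -0.23 to 0.0091 for Tpm2. From day 5 to day 10 they ran from -0.26 to 0.081 for Ccn1 in 6TCF and from -0.032 to 0.016 for Ccn2 in SGCF.

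Same-numbered arrays did not deviate together, with correlations of -0.28 to 0.11 over 15 pairs of groups. With a replicate block 8 members were called in 6TCF day 10 against day 5, as without it, and the block changed no member's call in the other comparisons. With 2 arrays a group, small changes are poorly resolved.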
